A study of Homo sapiens with 4 samples.

Results

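The BCL2 family of survival and death genes was examined in the established human melanoma line A2058. The 10 genes were set by name, as BCL2, BCL2L1, MCL1, BCL2A1, BAX, BAK1, BID, BCL2L11, PMAIP1 and BBC3, of 20045 genes with a named probe. They are measured by 22 of the 47315 probes, and every one of these probes was read. Messenger RNA was measured on 4 Illumina bead arrays with 1 array for each of 4 groups: carmustine-selected cancer stem-like cells in hypoxia, the same cells in normoxia, parental cells in hypoxia and parental cells in normoxia. The stem-like cells were obtained by keeping the parental line under 100 uM carmustine, a DNA-alkylating drug, for 6 months, and the labels do not say whether they are a clone or a mixed population. All groups were cultured in DMEM with fetal bovine serum, penicillin and streptomycin. For the oxygen level and the length of hypoxia, no value is stated in the sources used here. With 1 array per group no difference has a replicate check and none was tested, so each value describes these cultures alone.

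Proteins of the BCL2 family decide whether the outer mitochondrial membrane stays intact. The guardians BCL2, BCL-XL, MCL1 and BFL1 hold the pore-forming effectors BAX and BAK in check. The BH3-only proteins, among them BID, BIM, NOXA and PUMA, relay stress by binding guardians, and some of them activate the effectors directly. Once the membrane opens, cytochrome c reaches the cytosol and caspases are switched on. In pigment cells the transcription factor MITF is known to drive BCL2 and BCL2A1, and melanomas commonly lean on MCL1 for survival.

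The comparison of the cell states asked how the carmustine-selected cells differ from the line they came from. The guardians MCL1 and BCL2 went opposite ways in stem-like cells, with more MCL1 RNA and less BCL2 RNA under both oxygen conditions. The guardian BCL2L1 stayed short of 2-fold, with log2 folds of 0.77 in hypoxia and 0.12 in normoxia, and BCL2A1 was not detected. The BH3-only gene PMAIP1 was higher under both oxygen conditions, and BCL2L11 was higher in normoxia. BID stood between 1.67-fold and 1.99-fold above its parental level. The effectors BAX and BAK1 and the BH3-only gene BBC3 lay close to their parental levels. Hypoxia moved no member by as much as 2-fold in either cell state.

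On each array between 16432 and 16945 probes were detected, which here means a detection p-value under 0.01 against the negative control beads. Detected probes had median raw signals of 259 to 267 in stem-like cells and 295 to 301 in parental cells. Levels below are log2 of the background-corrected, quantile-normalized signal, and a member's fold is that of its brightest probe unless another is named. A gene counts as higher or lower from 2-fold on (a log2 fold of 1), a threshold on size with no test behind it. The lowest detected level was 5.22 to 5.29 depending on the array. As a gauge of error, log2 folds of different probes of 1 gene had an SD of 0.30 between cell states in normoxia and 0.28 in hypoxia, and of 0.20 and 0.23 between oxygen conditions in parental and stem-like cells. This SD holds neither the error between arrays nor that between cultures.

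The melanocyte list checked the tissue label. Of its 7 genes with a probe, 3 were detected in stem-like cells and 6 in parental cells, and their summed raw signal was 1754 and 1959 in stem-like hypoxia and normoxia, against 16080 and 14750 in parental hypoxia and normoxia. Of 7 leukocyte markers with a probe, 3 were detected in each stem-like culture, against 1 in parental hypoxia and 2 in parental normoxia, with summed raw signals of 1120 and 1046 in stem-like hypoxia and normoxia, against 930 and 910 in parental hypoxia and normoxia. The pan-leukocyte gene PTPRC was not detected on any array. Of 7 fibroblast markers, 2 were detected in stem-like hypoxia, 3 in stem-like normoxia and 2 in each parental culture, with summed raw signals of 1016 and 1021 in the stem-like cultures against 1755 and 1576 in the parental ones. Keratinocyte markers gave 1 of 5 detected on every array, with sums of 1559 and 1646 against 2034 and 2080. Endothelial markers gave 0 or 1 of 5, with sums of 601 and 576 against 598 and 546. All these sums include undetected probes and are not background-corrected, so background makes up much of the low ones. The undetected endothelial gene CDH5 still read 101 and 99 in stem-like hypoxia and normoxia, against 106 and 99 in parental hypoxia and normoxia. The part of these marker differences in the results below was not tested. In such bulk RNA, fewer cells that carry a transcript and less of it per cell cannot be told apart.

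Of the 22 probes, 13 were detected on all 4 arrays, 2 on some and 7 on none. The 13 cover 9 genes, and BCL2A1 alone was not detected anywhere. Among those 9 genes, 3 were higher in stem-like normoxia, where 6.67% of 10758 genes were higher, and 1 was lower, where 5.87% were lower. Their median log2 fold was 0.12, against -0.01 over all genes. In hypoxia 2 members were higher in stem-like cells, with 7.24% of 11000 genes higher, and 1 was lower, with 5.97% lower. The median was then 0.40, against -0.0046 over all genes. The comparisons in normoxia and in hypoxia use different arrays.

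**Figure D1:**
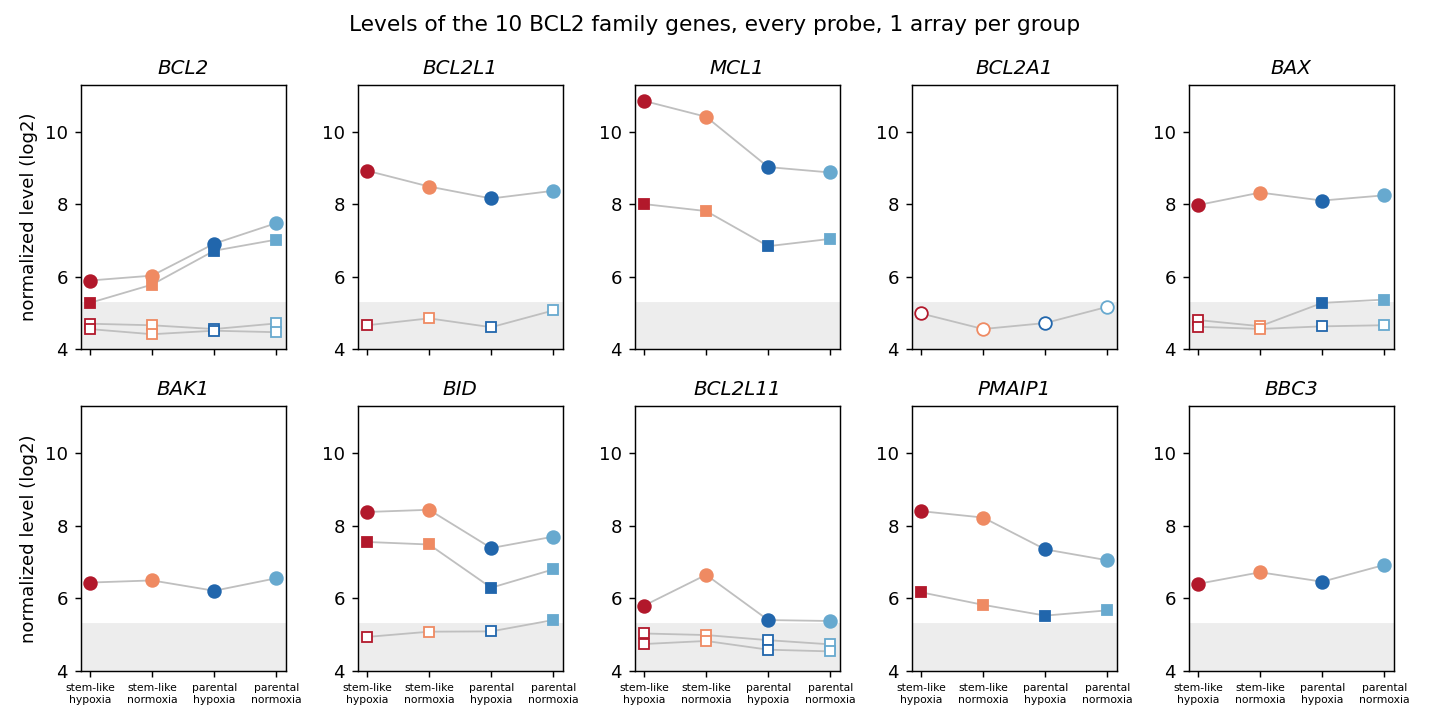
Normalized level (log2) of every probe of the 10 genes on each of the 4 arrays. Circles are the brightest probe of a gene and squares its other probes, filled where detected and open where not, the grey band ends at the highest of the 4 lowest detected levels, and lines join the values of 1 probe. Each MCL1 probe stands higher in the stem-like cultures than in the parental ones, the detected BCL2 probes stand lower, and BCL2A1 is open on all 4 arrays.

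MCL1 encodes a short-lived guardian that binds BAK and BIM. Its brighter probe had raw signals of 1845 in stem-like hypoxia and 1299 in stem-like normoxia, against 672 in parental hypoxia and 607 in parental normoxia. Both stem-like values lay above both parental values. How many of all genes separate the cell states in this way was not counted, here or for the genes below. The arrays of a cell state differ in oxygen condition and are not replicates. The normalized levels were 10.86 and 10.42 in stem-like hypoxia and normoxia, against 9.03 and 8.88 in parental hypoxia and normoxia. This put MCL1 3.55-fold higher in stem-like cells in hypoxia and 2.91-fold higher in normoxia, above the folds of 97.5% and 96.8% of genes measured. The other MCL1 probe, annotated to the same transcript record NM_021960, gave 2.24-fold in hypoxia and a log2 fold of 0.77 in normoxia. It had the same direction and passed 2-fold only in hypoxia. The probes differ by 0.77 in normoxia and 0.66 in hypoxia, more than the SDs of 0.30 and 0.28 between probes of 1 gene. In hypoxia the dimmer probe fell short of 2-fold without background correction, at 0.75, and with an offset of 50, at 0.97. The MCL1 calls by the brighter probe held under all 6 alternative settings. The log2 folds of this probe were 1.37 to 1.57 in normoxia and 1.66 to 1.83 in hypoxia. Settings that change only the detection rule leave these folds as they are by construction. The authors' further table and no background correction gave nearly the same value in normoxia, 1.38 and 1.37. The 6 settings are therefore not 6 separate checks.

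BCL2, the founding guardian of the family, had raw signals of 152 in each stem-like culture, against 228 in parental hypoxia and 285 in parental normoxia. Its normalized levels were 5.90 and 6.03 in stem-like hypoxia and normoxia, against 6.92 and 7.48 in parental hypoxia and normoxia. BCL2 was 2.02-fold lower in stem-like cells in hypoxia and 2.73-fold lower in normoxia. A second detected probe of the same transcript record, NM_000633, was 2.71-fold lower in hypoxia and 2.36-fold lower in normoxia. The remaining BCL2 probes, for the transcript record NM_000657 of a shorter isoform, were not detected on any array. The stem-like values lie within 1 log2 unit of the lowest detected level. Without background correction the log2 folds of the brighter probe were -0.48 in hypoxia and -0.77 in normoxia, short of 2-fold. In hypoxia that probe also fell short with median scaling, at -0.94, and with an offset of 50, at -0.72.

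Set beside each other, the log2 fold of MCL1 exceeded that of BCL2 by 2.99 between the cell states in normoxia and by 2.84 in hypoxia. Over the alternative settings this gap between 2 differences, by the brightest probe of each gene, ranged down to 2.14 in each oxygen condition. The second detected probes lay closer together, at 0.77 for MCL1 and -1.24 for BCL2 in normoxia, and 1.16 and -1.44 in hypoxia. Without background correction these probes had 0.75 and -0.59 in hypoxia, so 2.14 is no lower limit over probes. The gap compares changes, not the amounts of the 2 transcripts, which different probes cannot give.

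BCL2L1 encodes the guardian BCL-XL. Its detected probe had normalized levels of 8.93 and 8.49 in stem-like hypoxia and normoxia, against 8.16 and 8.38 in parental hypoxia and normoxia. Stem-like hypoxia was the highest of the 4 values, while the other 3 spanned 0.33 on the log2 scale. The log2 fold between the cell states was 0.77 in hypoxia and 0.12 in normoxia, neither past 2-fold. A second probe was not detected.

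BCL2A1 encodes BFL1, a guardian known as a MITF target in melanoma. Its single probe read raw signals of 124 and 110 in stem-like hypoxia and normoxia, against 121 and 130 in parental hypoxia and normoxia, with detection p-values of 0.034 and 0.37 against 0.16 and 0.018. None passed 0.01, so no fold is given. MITF itself stood at normalized levels of 6.88 and 7.34 in stem-like hypoxia and normoxia, against 9.97 and 9.58 in parental hypoxia and normoxia, which is 8.53-fold lower in stem-like cells in hypoxia and 4.72-fold lower in normoxia. The RefSeq promoter of BCL2A1 holds an M-box, the MITF-type E-box TCATGTG, and is shown for that reason. The bases that precede the annotated start by up to 250 run 5′ to 3′ on the minus strand of GRCh38.p14 at chr15:79971197-79971446, with the match in capitals.
BCL2A1: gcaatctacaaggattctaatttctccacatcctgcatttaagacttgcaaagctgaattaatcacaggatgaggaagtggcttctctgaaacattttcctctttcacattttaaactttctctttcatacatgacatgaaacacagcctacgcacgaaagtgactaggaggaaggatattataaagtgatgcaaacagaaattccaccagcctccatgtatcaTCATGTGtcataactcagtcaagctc
The match begins 26 bases before the start. TCATGTG, read on both strands, occurs in 2.52% of 35116 RefSeq promoter windows of this length. It was found in none of the other member windows, and RefSeq windows were matched for 9 of the 10 members. The motifs were chosen with the sequences in view, and a match is a description of letters only.

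Among the BH3-only genes, PMAIP1 encodes NOXA, which binds MCL1 and BFL1 and leads MCL1 to degradation. Its brighter probe had raw signals of 416 and 353 in stem-like hypoxia and normoxia, against 275 and 233 in parental hypoxia and normoxia. Both stem-like values exceeded both parental ones, with the limits given for MCL1. It was 2.08-fold higher in stem-like cells in hypoxia and 2.26-fold higher in normoxia. The dimmer probe of the same transcript record, NM_021127, gave log2 folds of 0.64 and 0.15, so the probes differ by 1.03 in normoxia, more than the SD of 0.30 between probes of 1 gene. Without background correction the brighter probe stood at 0.75 in hypoxia and 0.80 in normoxia, and the mean of both probes at 0.85 and 0.67, all short of 2-fold.

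BID is cleaved by caspase-8 and links death receptors to mitochondria. Its brightest probe had normalized levels of 8.38 and 8.44 in stem-like hypoxia and normoxia, against 7.39 and 7.70 in parental hypoxia and normoxia. A second detected probe, annotated to NM_197967, had 7.55 and 7.48 against 6.29 and 6.80. For each probe the stem-like values did not overlap the parental ones, with the limits given for MCL1. The log2 folds were 0.996 and 1.26 in hypoxia and 0.74 and 0.69 in normoxia, so the probes lay within 0.27 of each other. In hypoxia the brightest probe stopped just short of 2-fold at 1.99-fold, and the second probe reached 2.40-fold. Without background correction both stood at a log2 fold of 0.71 in hypoxia. There the second probe also fell short with an offset of 50, at 0.98, and the brightest passed 2-fold with median scaling, at 1.01. The remaining BID probe was detected in parental normoxia only.

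BCL2L11 encodes BIM, which binds all guardians and activates BAX and BAK. Its detected probe, annotated to NM_006538, had raw signals of 148 and 182 in stem-like hypoxia and normoxia, against 141 and 136 in parental hypoxia and normoxia. The normalized levels were 5.79 and 6.65 in the stem-like cultures, against 5.40 and 5.37 in the parental ones. Stem-like normoxia stood apart from the other 3 arrays, which spanned 0.42. The gene was 2.42-fold higher in stem-like cells in normoxia, and its log2 fold was 0.40 in hypoxia. The parental values lie just above the lowest detected level, and without background correction the log2 fold in normoxia was 0.52. The other BCL2L11 probes were not detected. FOXO transcription factors are known to drive this gene, and the promoter is shown because it carries their motif GTAAACA, in capitals below, on the plus strand of GRCh38.p14 at chr2:111120664-111120913.
BCL2L11: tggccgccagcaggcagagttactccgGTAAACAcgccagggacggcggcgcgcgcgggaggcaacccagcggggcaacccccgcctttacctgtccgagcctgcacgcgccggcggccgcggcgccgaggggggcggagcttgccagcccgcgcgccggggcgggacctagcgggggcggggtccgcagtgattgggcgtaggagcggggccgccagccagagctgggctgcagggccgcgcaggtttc
The match begins 223 bases before the annotated start, and 2.98% of the 35116 windows hold the motif on either strand. The FOXO genes of the regulator list, FOXO1 and FOXO3, are named here for this motif and outside the rule for named genes. FOXO1 had normalized levels of 6.85 and 7.29 in stem-like hypoxia and normoxia, against 7.23 and 6.85 in parental hypoxia and normoxia. Its log2 folds between the cell states were -0.38 in hypoxia and 0.43 in normoxia, and those of hypoxia over normoxia were -0.44 in stem-like and 0.38 in parental cells. The brightest FOXO3 probe had -0.15 and -0.08 between the cell states in hypoxia and normoxia, and 0.09 and 0.16 for hypoxia in stem-like and parental cells.

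BBC3 encodes PUMA, a p53-induced BH3-only protein that binds all guardians. Its probe had normalized levels of 6.40 and 6.72 in stem-like hypoxia and normoxia, against 6.46 and 6.92 in parental hypoxia and normoxia. The log2 folds between the cell states were -0.06 and -0.20, within the SD between probes.

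Of the 9 detected genes, the effectors had the narrowest ranges over the 4 arrays, 0.35 each on the log2 scale. BAX, which moves from the cytosol to mitochondria when activated, had normalized levels of 7.98 and 8.33 in stem-like hypoxia and normoxia, against 8.11 and 8.25 in parental hypoxia and normoxia. BAK1 encodes BAK, the effector that resides on mitochondria, and had 6.43 and 6.49 against 6.21 and 6.55. For both genes the values of the cell states overlapped. The log2 folds between cell states in hypoxia and normoxia were -0.13 and 0.08 for BAX and 0.23 and -0.06 for BAK1, all smaller than the SD between probes. With median scaling the BAK1 value in normoxia was 0.05. A further BAX probe, annotated to NM_004324, was detected in the parental cultures only, at 5.28 and 5.37 in hypoxia and normoxia, close to the lowest detected level.

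**Figure D2:**
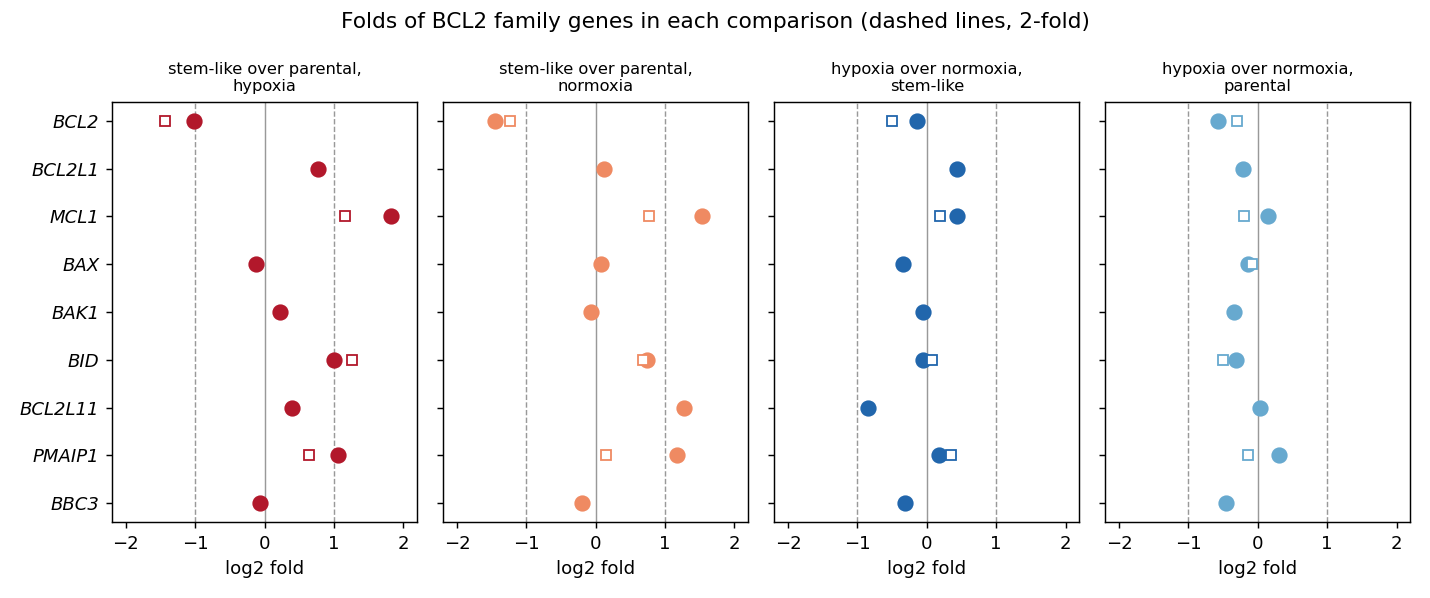
Log2 folds (horizontal axes) of the 9 detected genes in the 4 comparisons, each from 1 array over 1 array. Filled circles are the brightest probe, open squares other probes detected on both arrays, and dashed lines mark 2-fold. MCL1, PMAIP1 and BID lie right of 0 and BCL2 left of 0 in both comparisons of cell states, and no point passes 2-fold in the comparisons of oxygen conditions.

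The comparison of oxygen conditions asked whether hypoxia altered these transcripts within each cell state. In stem-like cells 0 of 9 members were higher and 0 lower, where 0.491% of 10595 genes were higher and 0.189% lower, and the members' median log2 fold was -0.06 against 0.005 over all genes. In parental cells 0 of 9 were higher and 0 lower, where 0.383% of 10442 genes were higher and 0.0766% lower, and the median was -0.21 against -0.0014. By sign, 6 members stood below 0 and 3 above in each cell state. A share of 0 is thus close to the background in both.

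In stem-like cells the member farthest from 0 was BCL2L11, with a log2 fold of -0.85 in hypoxia, lower than 99.6% of genes. Without background correction that value was -0.38. The guardians MCL1 and BCL2L1 had log2 folds of 0.44 each. BAX had -0.35 and BBC3 -0.32. In parental cells BCL2 had the lowest value, -0.57, followed by BBC3 at -0.46, BAK1 at -0.35 and BID at -0.31, and PMAIP1 had the highest, 0.30. The second probes of MCL1 and PMAIP1 had the opposite sign to the brighter ones in parental cells, at -0.20 and -0.14.

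Subtracting the parental hypoxia log2 fold from the stem-like one gave a difference that passed 1 in no member, against 0.322% of 9006 genes upward and 0.344% downward. BCL2L11 had -0.88, with hypoxia log2 folds of -0.85 in stem-like and 0.03 in parental cells. BCL2L1 had 0.65, with 0.44 in stem-like and -0.21 in parental cells, and the second BID probe had 0.58. The difference for BCL2 had opposite signs by its detected probes, at 0.43 and -0.20, and so did that for PMAIP1, at -0.12 by the brighter and 0.49 by the dimmer probe.

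**Figure D3:**
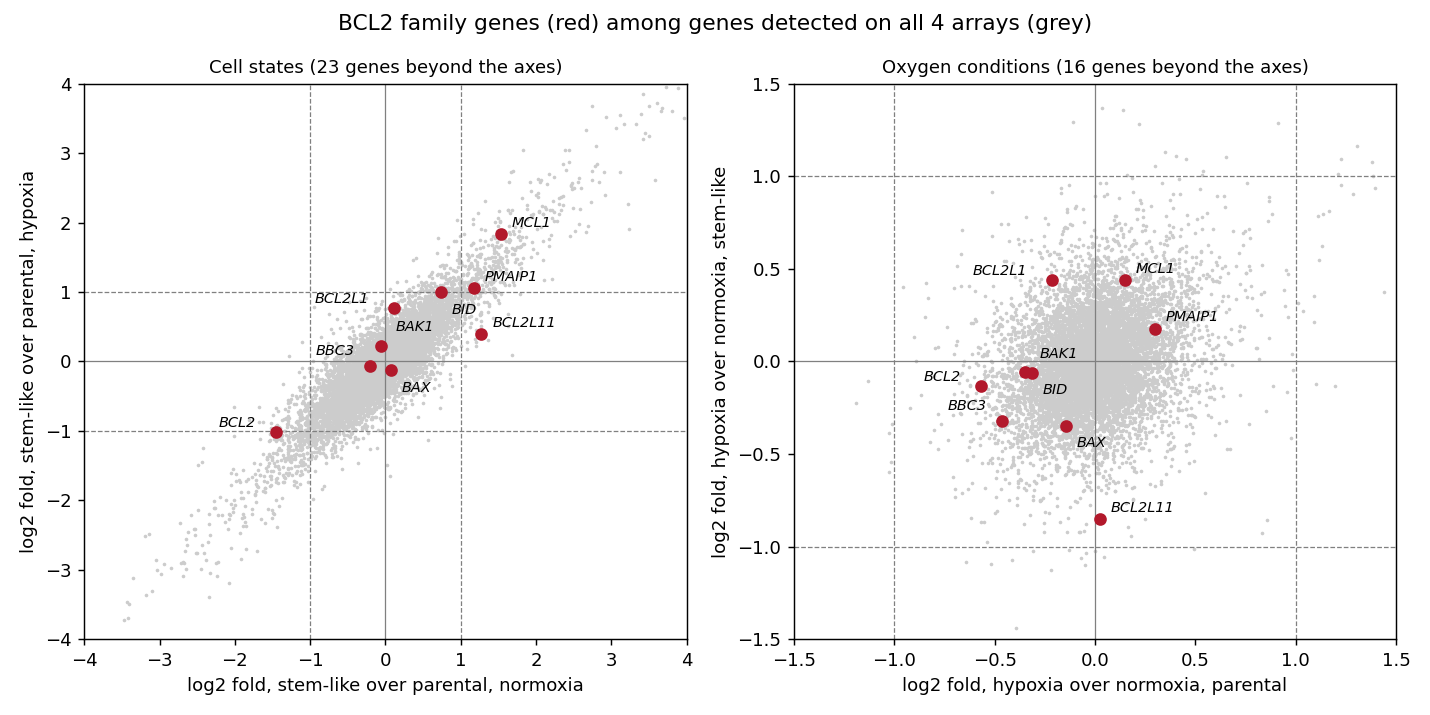
Left, log2 folds of stem-like over parental cells in normoxia (horizontal) and hypoxia (vertical), and right, log2 folds of hypoxia over normoxia in parental (horizontal) and stem-like cells (vertical), for the 9006 genes detected on all 4 arrays; 23 genes on the left and 16 on the right lie beyond the axes. The 9 detected members are red, dashed lines mark 2-fold, and BCL2L11 lies apart from the other members in the right panel at -0.85 on the vertical axis.

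BAX offers a plain case of a promoter rich in the letters that the hypoxia-inducible factors and E-box proteins recognise. Its window holds 4 copies of the palindrome CACGTG, each of which contains the hypoxia-inducible factor core ACGTG on both strands. It is shown with these copies in capitals, on the plus strand of GRCh38.p14 at chr19:48954625-48954874.
BAX: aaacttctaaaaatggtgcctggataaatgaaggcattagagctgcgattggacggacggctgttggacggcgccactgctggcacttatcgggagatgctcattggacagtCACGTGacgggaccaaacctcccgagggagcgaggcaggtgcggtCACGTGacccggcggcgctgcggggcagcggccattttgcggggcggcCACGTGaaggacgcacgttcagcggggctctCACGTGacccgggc
At least 4 copies occur in 0.0142% of the 35116 windows, and at least 1 in 6.34%. Among the other members, the BBC3 window and some of the BID windows hold 1 copy. The hypoxia log2 folds of BAX beside this sequence were -0.35 in stem-like and -0.14 in parental cells.

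The remaining family members followed the lists written for the pathway. Of 9 further BH3-only and BH3-like genes, 7 were measured. By their brightest probes all 7 had log2 folds above 0 between the cell states in normoxia, where the median over all genes was -0.01. The share of all genes above 0 was not counted. BNIP3L and BECN1, at 0.23 and 0.25, lay within the SD of 0.30 between probes of 1 gene. In hypoxia 6 stood above 0 and 1 below, and 0 passed 2-fold. A dimmer BAD probe had 0.06 in normoxia and -0.52 in hypoxia, against 0.96 and 0.50 by the brightest. BECN1 and BAD are named outside the rule for named genes. In normoxia 1 was higher by 2-fold, where 6.67% of all genes were. That gene was BNIP3, a mitophagy receptor of the hypoxia response, at 2.57-fold. BNIP3 and its relative BNIP3L were also the only measured genes of this list past 2-fold in hypoxia over normoxia. Over all genes, 0.491% were higher in stem-like and 0.383% in parental cells. BNIP3L was 2.11-fold higher in stem-like and 2.60-fold higher in parental cells, and BNIP3 2.24-fold and 4.65-fold. The difference of these hypoxia log2 folds, stem-like minus parental, was -1.06 for BNIP3, the 1 gene of the list past 1. The guardian-type list had 2 of 3 measured with 0 past 2-fold in any comparison. These genes are named outside the rule for named genes. BCL2L2 stopped just short, at 1.99-fold higher in stem-like hypoxia and 1.93-fold higher in stem-like normoxia. BCL2L12 had log2 folds of -0.28 and -0.20. The list of effector relatives also had 0 past 2-fold, with 3 to 4 of 5 genes with a probe measured.

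Downstream of the mitochondria, 9 genes of apoptosome formation and mitochondrial release were measured, with 1 higher and 2 lower in stem-like normoxia, where 6.67% of all genes were higher and 5.87% lower, and 0 higher and 1 lower in stem-like hypoxia, where 7.24% and 5.97% were. APAF1, the scaffold of the apoptosome, had normalized levels of 7.84 and 6.81 in stem-like hypoxia and normoxia, against 8.66 and 8.12 in parental hypoxia and normoxia. Its stem-like values lay below the parental ones, again with the limits given for MCL1. It was 2.48-fold lower in stem-like normoxia, and 2.04-fold higher in hypoxia than in normoxia within stem-like cells. SEPTIN4, a splice form of which, ARTS, antagonises the caspase inhibitor XIAP, was at least 3.37-fold lower in stem-like cells in each oxygen condition. HTRA2, a mitochondrial protease that also antagonises XIAP, was 2.11-fold higher in normoxia by its brighter probe, with a log2 fold of 0.53 by the other. Of 6 caspase genes and 4 to 5 caspase inhibitor genes measured, 0 passed 2-fold in any comparison by the brightest probe. A dimmer probe of CASP1, the caspase of inflammasomes, had a log2 fold of -1.09 between the cell states in normoxia, against -0.83 by the brightest.

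Among death receptors and their adaptors, 7 of 13 genes with a probe were measured between the cell states. In hypoxia 3 were higher and 0 lower, where 7.24% of all genes were higher and 5.97% lower, and in normoxia 2 were higher and 1 lower, where 6.67% and 5.87% were. TNFRSF1A, the main receptor of tumour necrosis factor, was 2.79-fold higher in stem-like hypoxia and 2.51-fold higher in stem-like normoxia. TNFRSF10A, a receptor of the death ligand TRAIL, was detected in stem-like cells only and was at least 2.02-fold and 2.05-fold higher. TNFRSF21, which encodes death receptor 6, was 2.07-fold higher in hypoxia with a log2 fold of 0.81 in normoxia. TRADD, the adaptor of TNFRSF1A, was 2.46-fold lower in normoxia with a log2 fold of -0.72 in hypoxia. Of these, TNFRSF1A alone was measured on all 4 arrays and past 2-fold in both oxygen conditions.

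Of 13 measured regulators of member transcription, 3 were lower in stem-like hypoxia and 2 in stem-like normoxia, and 0 were higher, by their brightest probes and beside the same shares over all genes. Besides MITF they were MYC, a growth-promoting factor that also sensitises cells to death, at 2.19-fold lower in hypoxia and 2.88-fold in normoxia, and SOX10, a neural crest factor upstream of MITF, at 2.28-fold lower in hypoxia with a log2 fold of -0.79 in normoxia. A dimmer probe of HIF1A, a hypoxia-inducible factor subunit, had a log2 fold of 1.13 in stem-like normoxia, against 0.75 by the brightest. None of the 10 measured regulators of BCL2 family proteins, such as deubiquitinases and chaperones, passed 2-fold between the cell states in hypoxia, nor did the 9 measured in normoxia, by their brightest probes. Another probe of HAX1, which encodes an anti-apoptotic mitochondrial protein, was past it, with a log2 fold of -1.46 in hypoxia against -0.82 by the brightest.

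MCL1 had the widest range of the 9 detected members, 1.98 on the log2 scale. The 3 genes with the most similar profile among 9005 others detected on all 4 arrays were ERRFI1, DHRS3 and ZYX, with distances of 0.093, 0.12 and 0.13 between mean-centred log2 levels over the 4 arrays. ERRFI1, which encodes a feedback inhibitor of the EGF receptor, stood at 11.04 and 10.53 in stem-like hypoxia and normoxia, against 9.27 and 9.02 in parental hypoxia and normoxia. With 4 points per profile many genes follow the same order.

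**Figure D4:**
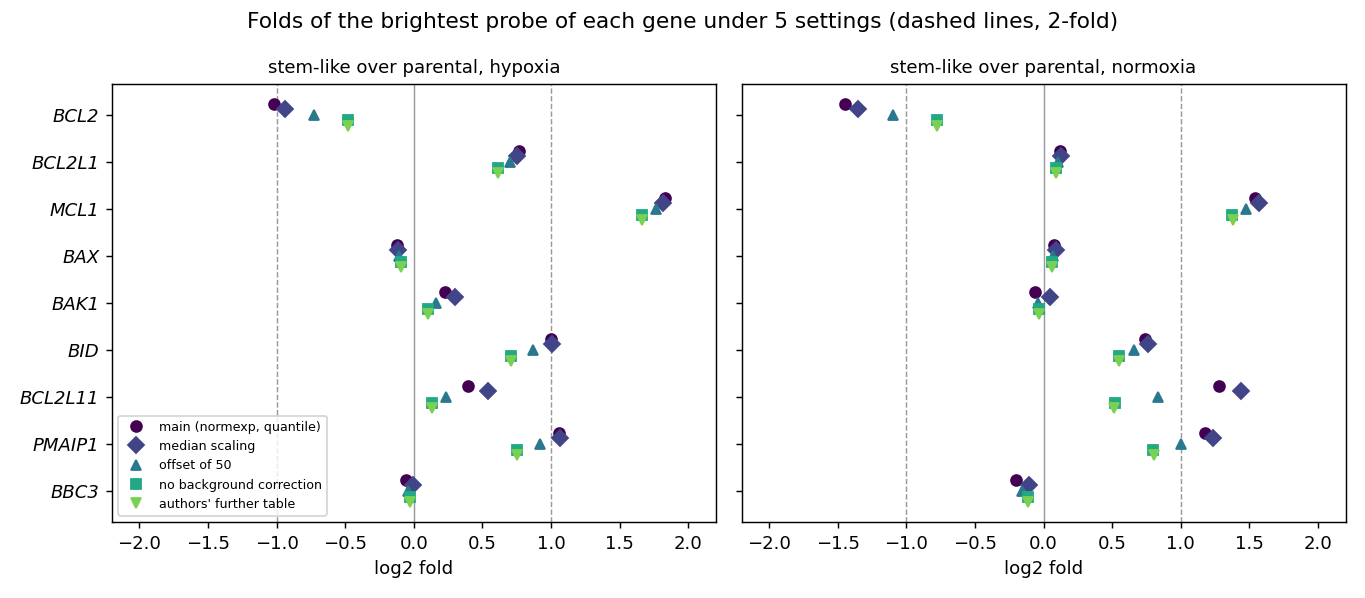
Log2 folds (horizontal axes) of stem-like over parental cells in hypoxia (left) and normoxia (right) for the brightest probe of each detected gene, under 5 settings of background correction and normalization; dashed lines mark 2-fold. MCL1 stays right of 2-fold under all 5, while BCL2, BCL2L11 and PMAIP1 come inside it in normoxia without background correction. In hypoxia BCL2 comes inside it under every setting but the main one. PMAIP1 does so in hypoxia with the raised offset and without background correction.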

How the data were processed

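The deposited non-normalized table gives a mean bead intensity per probe on a linear scale and a detection p-value, per the file headers. The authors' further table holds intensity values with identical quantiles on all arrays, a property of the values; no source used here names the software or the normalization behind it. Printed identifiers of the first table stood up to 8 lines away from their values for 98.0% of probes. Each line was matched in order to the further table, after which the Spearman rho of the first array with that table was 1.00, against 0.015 before; 8 lines stayed unmatched and unused. Between 2 probes of the same gene, over 6691 genes, rho was 0.015 before and 0.48 after.

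Probes were named through the platform annotation, which can be old: 30112 had 1 symbol, 8 several and 17195 none. Of the 30112, 30073 matched the RefSeq gene table. Background correction and normalization used limma 3.58.1 under R 4.3.3 (normexp with an offset of 16, negative controls inferred from detection p-values, quantile, log2), and the fold step was tested on simulated data. Values of undetected probes were lifted to their array's lowest detected level, giving a bound. The brightest probe by mean level stands for a gene. Named genes were all members, up to 4 genes per list and comparison past 2-fold, and the 3 nearest profiles. Members and lists were chosen with earlier results of these data known.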

Additional observations from a re-analysis of the deposited data

Results flagged for a closer look

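BCL2L1, which encodes BCL-XL, had hypoxia log2 folds of opposite sign in the cell states, 0.44 in stem-like cells and -0.21 in parental cells. Each was larger than the SD between probes of 1 gene, in parental cells only narrowly, at -0.212 against 0.204. Over the alternative settings the parental value came as near 0 as -0.16. It also lay within the SD of 0.258 over all genes in that comparison. The difference, stem-like minus parental, was 0.65. It rests on 1 probe and 1 array per group and was not tested.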

How the results depend on the processing

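Of 417 recomputed folds of member probes, 3 changed sign and 27 crossed 2-fold. The sign changes were the difference of hypoxia folds by the second BCL2 probe, at 0.0017 without background correction and 0.0049 with the authors' further table, and BAK1 between cell states in normoxia with median scaling, at 0.05. With the mean of the detected probes, MCL1 in normoxia stood at a log2 fold of 1.15 and PMAIP1 at 0.67. Members past 2-fold in stem-like normoxia numbered 1 higher and 0 lower without background correction and with the authors' further table, and the same counts held in stem-like hypoxia, where an offset of 50 also left 1 higher and 0 lower and median scaling gave 3 higher, with BID at a log2 fold of 1.01, and 0 lower. Over all genes, without background correction 19 were higher and 1 lower in parental hypoxia, 11 and 2 in stem-like hypoxia against stem-like normoxia, 344 and 251 between cell states in normoxia, 371 and 283 in hypoxia, and 2 and 4 for the difference of hypoxia folds. With the authors' further table these counts were 20 and 1, 10 and 2, 346 and 256, 372 and 286, and 3 and 5. With an offset of 50, 1 was lower in parental hypoxia, 23 higher and 6 lower in stem-like hypoxia, 404 and 418 lower between cell states in normoxia and hypoxia, and 6 and 12 for the difference. Median scaling left 34 higher in stem-like hypoxia. With no detection filter 15 were lower in parental hypoxia, and 122 and 92 passed for the difference. Omitting the correction or raising the offset adds a constant to every signal, which by construction shrinks folds of dim probes. No paired analysis was possible because each group has 1 array, and for the same reason no array could be left out.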
